A study of Mus musculus with 96 samples.

Results

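The nuclei described here are those in which chromosome 19 was nearly doubled against chromosome 4. They were chosen by a single value per nucleus, the median bin ratio of chromosome 19 set against that of chromosome 4, which had to reach 175%. This rule took 9 of 94 single nuclei and left 85 below it. The series holds 96 libraries of genomic DNA, 94 from single nuclei and 2 from bulk samples, all from the KPC1199EGFP line, a pancreatic cancer line of C57BL/6 background with EGFP expression. The cells were adherent, at passage 9 and untreated, and nuclei in a DAPI buffer were sorted by DNA content into gates labelled 2N (47 nuclei), 2N+ (35 nuclei) and 4N (12 nuclei). There was 1 bulk library for 2N and 1 for 2N+. The groups share line, passage and treatment and differ in the gate. The index number that ends each title also follows the gate in blocks, so an effect of that order cannot be told apart from the gate. Nothing in the labels names separate cultures or animals, and the number of cultures is not given. Nuclei were therefore taken as cells of 1 culture and not as replicates, and no p-value was computed. The question was whether these 9 nuclei formed a single lineage that was spread over the gates.

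Normal mouse cells carry each autosome as a pair, and cancer cells often gain or lose whole chromosomes when these are unequally shared out at division. Such a change is passed to the daughter cells, as is a break inside a chromosome where copy number steps up or down, so cells of common descent tend to share both. Chromosome 19 carries Fas, which encodes a death receptor, Jak2, a kinase of cytokine receptors, and Cd274, which encodes an immune checkpoint ligand. These genes are given by chromosome only, because the bins and the gene table are of different builds.

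Values are deposited as segmented ratios of 4906 bins, each about 486 kb wide (median), and the read depth is unknown. A ratio is relative within its nucleus, so a doubling of the whole set cannot be seen. Copies here are the ratio scaled so that the median over bins of chromosomes 7, 9, 10 and 13 is 2, and a chromosome's state is its median over bins rounded to a whole number. Chromosome 4 was kept out of this scale because the rule uses it. Intervals are exact (Clopper-Pearson, 95%) and take in counting error alone. SDs describe the spread between nuclei. Positions are in mm9 and counted from 1. The mean ratio over bins was 0.994 to 1.095 in each library, and no pair of libraries held identical values. The number of breakpoints was 16 to 44 (median 22) in the 9 nuclei and 5 to 112 (median 19) below the limit, where 6 nuclei had more than 60.

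By gate, the limit was reached by 6 of 47 nuclei of 2N (12.8%, 4.83 to 25.7), 2 of 35 of 2N+ (5.71%, 0.6997 to 19.2) and 1 of 12 of 4N (8.33%, 0.211 to 38.5). Over all gates the share was 9.57% (4.47 to 17.4). The 3 intervals overlapped widely, which does not show equal shares. In the 2N gate the ratio of chromosome 19 to chromosome 4 was 2.01 in nucleus 39, 1.94 in nucleus 7, 1.93 in nucleus 47, 1.91 in nucleus 18, 1.89 in nucleus 11 and 1.87 in nucleus 6. In the 2N+ gate it was 1.93 in nucleus 5 and 1.91 in nucleus 7, and in the 4N gate it was 1.89 in nucleus 11. The median of the 9 was 1.91 (SD 0.0422).

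Just below the limit stood 2N+ nucleus 22, 4N nucleus 12, 2N nucleus 46 and 2N+ nucleus 24, each at 1.56, followed by 2N+ nucleus 31 at 1.53. No nucleus lay between 1.56 and 1.87. The 85 nuclei below the limit ranged from 1.02 to 1.56 with a median of 1.47. In copies, chromosome 19 was between 3.58 (2N nucleus 7) and 3.84 (2N nuclei 39 and 47) in the 9 nuclei, which rounds to 4 in each. Chromosome 4, which carries the tumour suppressor gene Cdkn2a, was between 1.84 (2N nucleus 7) and 2.01 (4N nucleus 11), which rounds to 2. The gap in the ratio was therefore made by chromosome 19. These values are what the rule selected and serve as a description.

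**Figure D1:**
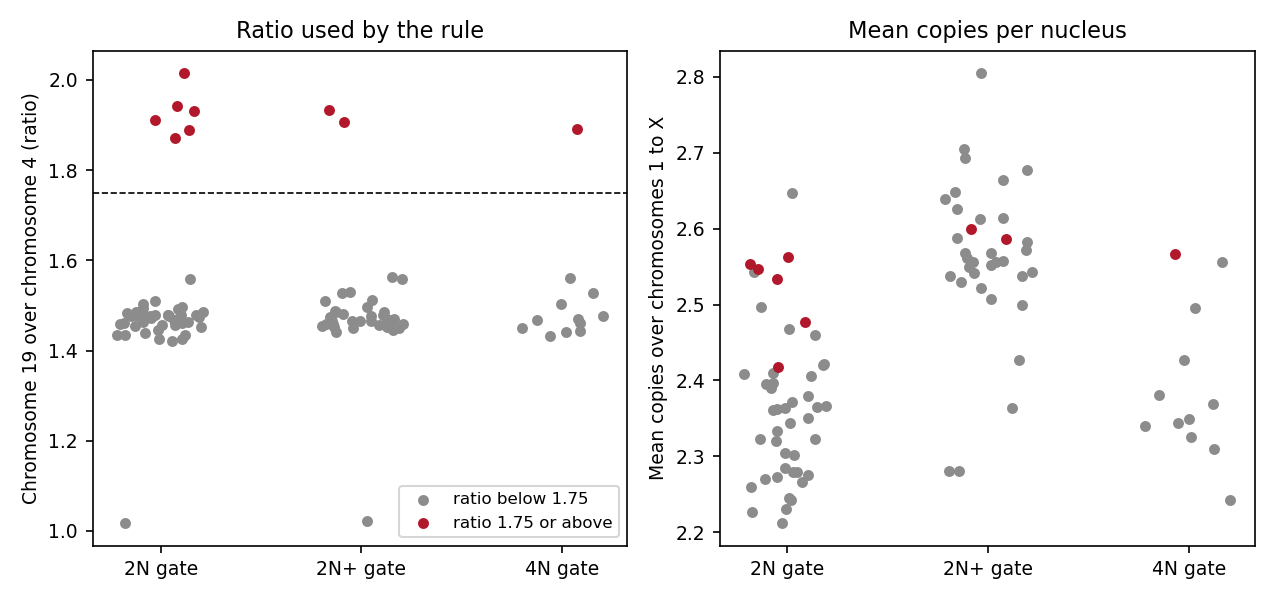
Left, the ratio of chromosome 19 to chromosome 4 (vertical axis) for each of 94 nuclei by gate, with the limit of 175% dashed; right, the mean copies over chromosomes 1 to X for the same nuclei. Each point is 1 nucleus, red at or above the limit, and sideways scatter has no meaning. The 9 red points lie at 1.87 or more on the left, above a gap that starts at 1.56, and on the right most red points of the 2N gate lie in the upper range of their gate.

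Each bulk library is a mixture of many nuclei of its gate. The ratio of chromosome 19 to chromosome 4 was 1.501 in the 2N bulk and 1.51 in the 2N+ bulk. The single nuclei had means of 1.52 ± 0.174 (SD, n = 47) and 1.49 ± 0.135 (SD, n = 35). The values are set side by side only, since the rule selected on this ratio and each gate had 1 bulk library.

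Outside chromosomes 4 and 19, 8 of the 9 nuclei had nearly the same set of chromosomes. The 5 nuclei 6, 7, 11, 18 and 39 of the 2N gate were identical in the rounded copies of all 17 other autosomes: chromosome 2 at 4 copies, chromosomes 1, 3, 5, 6, 8, 11, 15 and 17 at 3, and chromosomes 7, 9, 10, 12, 13, 14, 16 and 18 at 2. Nuclei 5 and 7 of the 2N+ gate were identical to each other and differed from these 5 in chromosome 3 alone, at 4 copies in place of 3. Nucleus 11 of the 4N gate also had chromosome 3 at 4 copies, and chromosome 2 was at 3 by its median. The remaining member, 2N nucleus 47, had a set of its own and is described separately below. None of these 4 sets occurred among the 85 nuclei below the limit. Over all nuclei there were 48 different sets.

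**Figure D2:**
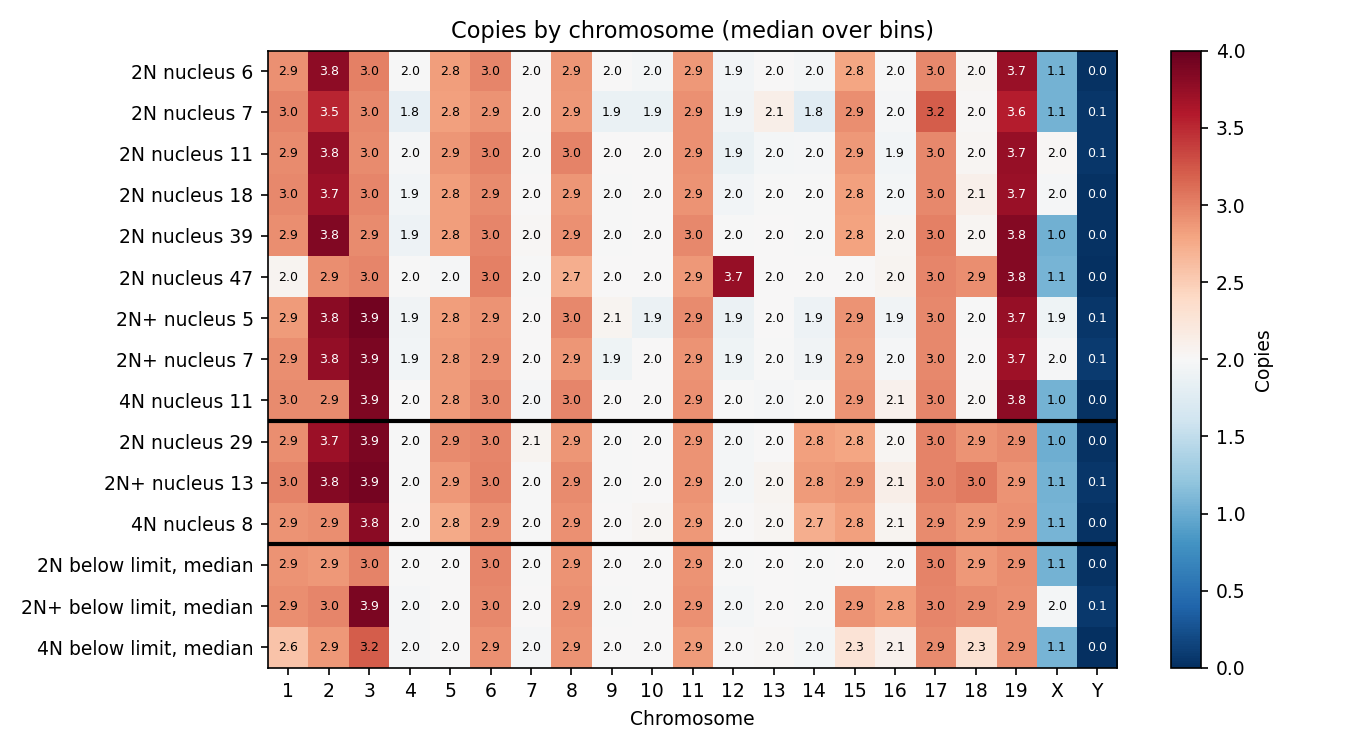
Copies of each chromosome (columns, median over bins, colour and number) in the 9 nuclei at or above the limit (upper block), in 3 nuclei below it that share regions with them (middle block) and as the median of the nuclei below the limit in each gate (lower block). Apart from 2N nucleus 47, the upper rows agree in chromosomes 1, 5, 15 and 18, while chromosome 3 is near 3 in the 2N rows and near 4 in the 2N+ and 4N rows.

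Between members and the rest, a chromosome was named where the share of nuclei at a state differed by 30 percentage points or more. This held for 27.8% of the chromosomes from 1 to X other than 4 and 19 (5 of 18), namely 2, 5, 15, 16 and 18. On the scale of bins, the median of the 9 nuclei was higher than that of the rest by 0.5 copies or more in 25.5% of the 4903 bins of chromosomes 1 to X and lower in 5.16%. The higher bins included all 119 bins of chromosome 19, which the rule selected and which therefore add nothing. They also included every bin of chromosomes 2 and 5 and 198 of 203 bins of chromosome 15. The lower bins included every bin of chromosome 18. The others lay in parts of chromosomes 8, 11 and X. No bin of chromosome 16 was higher or lower by this measure, although the chromosome was named by its shares.

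Chromosome 5, which carries Cdk6, a kinase that drives entry into the cell cycle, and the receptor gene Kit, reached 3 copies in 8 of 9 members (88.9%, 51.8 to 99.7) and in 13 of 85 other nuclei (15.3%, 8.40 to 24.7). In the 8 nuclei its copies were 2.82 to 2.88, and in 2N nucleus 47 they were 1.98. The gate mattered for the comparison, because 3 copies of it were found below the limit in 1 of 41 nuclei of 2N, 11 of 33 of 2N+ and 1 of 11 of 4N. Members of the 2N gate thus carried a state that was rare among other nuclei of their gate, 5 of 6 against 1 of 41.

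Chromosome 18, which carries Smad4, a transducer of TGF-beta signals, and Apc, a brake on Wnt signalling, went the other way. A state of 3 copies or more was found in 1 of 9 members (11.1%, 0.281 to 48.2), again 2N nucleus 47 with 2.93 copies, and in 58 of 85 other nuclei (68.2%, 57.2 to 77.9). The other 8 members had 1.99 to 2.09 copies. Below the limit, 2 copies were found in 16 of 41 nuclei of 2N, 4 of 33 of 2N+ and 7 of 11 of 4N. Chromosome 5 at 3 copies together with chromosome 18 at 2 was held by 8 of 9 members and by 0 of 85 other nuclei (0 to 4.25). This pair of states was picked after the values had been seen.

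Chromosome 15, which carries the growth regulator Myc, reached 3 copies in 8 of 9 members and in 41 of 85 other nuclei (48.2%, 37.3 to 59.3). Its copies were 2.79 to 2.93 in the 8 nuclei and 2.01 in 2N nucleus 47. Below the limit it was at 3 or more in 7 of 41 nuclei of 2N, 29 of 33 of 2N+ and 5 of 11 of 4N. The excess over the gate was thus seen within 2N (5 of 6 members), while in 2N+ the 2 members had the state that most of their gate had.

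Chromosome 16 reached 3 copies, by its median, in 0 of 9 members (0 to 33.6) and in 28 of 85 other nuclei (32.9%, 23.1 to 43.98). Of these 28 nuclei, 22 were in the 2N+ gate, where 22 of 33 nuclei below the limit had this state and 0 of 2 members did. Chromosome 2 reached 4 copies in 7 of 9 members (77.8%, 39.99 to 97.2) and in 10 of 85 others (11.8%, 5.79 to 20.6). Those 10 were 1 of 41 nuclei of 2N and 9 of 33 of 2N+. Chromosomes 1 and 3 stayed under the limit of 30 points: chromosome 1 was at 3 or more in 8 of 9 members and 60 of 85 others (70.6%), and chromosome 3 at 4 or more in 3 of 9 members and 36 of 85 others (42.4%). Chromosome 3 was at 4 or more in 2 of 2 members of 2N+ and 28 of 33 other nuclei of that gate, in 0 of 6 members of 2N and 5 of 41 others, and in 1 of 1 member of 4N and 3 of 11 others.

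**Figure D3:**
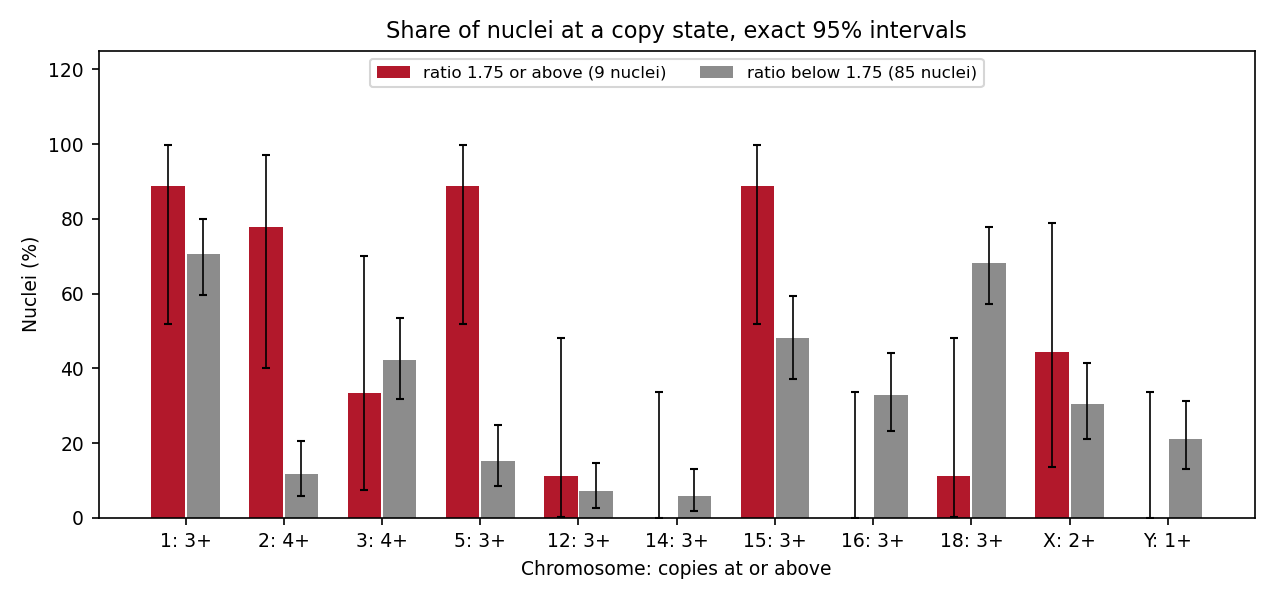
Share of nuclei (%) at or above the copy number written under each pair of bars, for the 9 nuclei at or above the limit (red) and the 85 below it (grey), with exact 95% intervals for counting error. The intervals are apart for chromosome 2 at 4 copies and chromosome 5 at 3 copies, and for chromosome 18 at 3 copies, where the share is 11.1% in red and 68.2% in grey.

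The likeness of the 8 nuclei was also read from the number of the 17 autosomes whose rounded copies differed. Among the 8, pairs differed in 0 to 2 autosomes (median 1, 28 pairs). Pairs of the same gate differed in 0 (10 pairs of 2N and 1 of 2N+). Pairs from different gates differed in 1 (2N with 2N+, 2N+ with 4N) or 2 (2N with 4N). A member of the 8 and a nucleus below the limit differed in 1 to 12 (median 4, 680 pairs), and pairs below the limit also had a median of 4 (0 to 13). Every one of the 8 had only members as its nearest nuclei. By this count the nearest nucleus below the limit was 2N+ nucleus 28, at 2 differences from the 5 nuclei of 2N and 1 from the 2 of 2N+. The 4N member had 4N nucleus 8 among its nearest of the rest, at 2 differences. Over bins, without chromosomes 4 and 19, the correlation of profiles had a median of 0.951 (0.882 to 0.994) among the 8 and 0.737 (0.470 to 0.943) between them and the rest. By correlation the closest nuclei below the limit were others than by the count. They were 2N nucleus 29 for the 5 of 2N (0.881 to 0.906) and 2N+ nucleus 13 for the 2N+ and 4N members (0.897 to 0.943). These correlations are across bins, which share segments, and describe the profiles only. In 2N nucleus 47 the correlation with the other members had a median of 0.509.

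Borders inside chromosomes gave a further view of the same nuclei. It is not a separate one, since a border can change the median of its chromosome. A step was a change of 0.5 copies or more between neighbouring bins, and steps in the same direction within 3 bins were taken as 1 position. The members had 12 to 25 steps each (median 17) and the others 3 to 92 (median 9). Of 440 positions over all nuclei, 12 (2.73%) were found in at least 5 of the 9 members, and 7 (1.59%) in 2 or more members and at most 2 of the others. The regions below lie between such steps, and combinations of regions were put together after the values had been seen.

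Chromosome 11, which carries Trp53, the gene of the p53 tumour suppressor, had 4 regions in the 8 alike nuclei. It was at 3 copies up to 59116631, at 4 from 59116632 to 70335154, at 3 from 70335155 to 95625098 and at 4 from 95625099 to the end. This pattern was seen in 8 of 9 members and in 3 of 85 other nuclei (3.53%, 0.734 to 9.97). In the second region the copies of the 8 were 3.82 in 2N nucleus 6, 3.96 in nucleus 7, 3.92 in nucleus 11, 3.72 in nucleus 18 and 3.79 in nucleus 39, 3.68 and 3.76 in 2N+ nuclei 5 and 7, and 3.76 in 4N nucleus 11. In the last region they were 3.51 to 3.70. In 2N nucleus 47 all 4 regions were at 2.87, and the medians of the nuclei below the limit were 2.89 to 2.90 in each region. The downward step at 70335155 fell within 3 bins in all 8 nuclei and in exactly the same bin in 7 of them. The other borders were less exact. The rise at 59116632 was found in 6 members, 3 of them in that bin, and in 11 of 85 other nuclei. The rise at 95625099 was found in 7 members, 5 of them in that bin, and in 5 of 85 others.

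Chromosome 8 was at 3 copies up to 93365608 and at 2 beyond in the same 8 members and in 7 of 85 other nuclei (8.24%, 3.38 to 16.2). After the border the copies were 1.97 to 2.16 in the 8 nuclei, 2.99 in 2N nucleus 47 and 2.92 as the median of the rest. The border lay in the same bin in 6 of the 8. In the other 2, 2N nuclei 7 and 11, the step was placed at 91050079, where 19 of 85 other nuclei also had one. A stretch at the start of chromosome 8 is described as well. It has 74 bins, as many as the bins of this chromosome called higher in members. Its difference was thus seen beforehand and serves as a description. From 4163999 to 43640395 it was at 3 copies in the 8 nuclei (2.87 to 2.99) and at 1.96 in 2N nucleus 47. Below the limit this stretch was at 3 or more in 38 of 85 nuclei (44.7%, 33.9 to 55.9), of which 28 of 33 were in 2N+ but 6 of 41 in 2N.

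**Figure D4:**
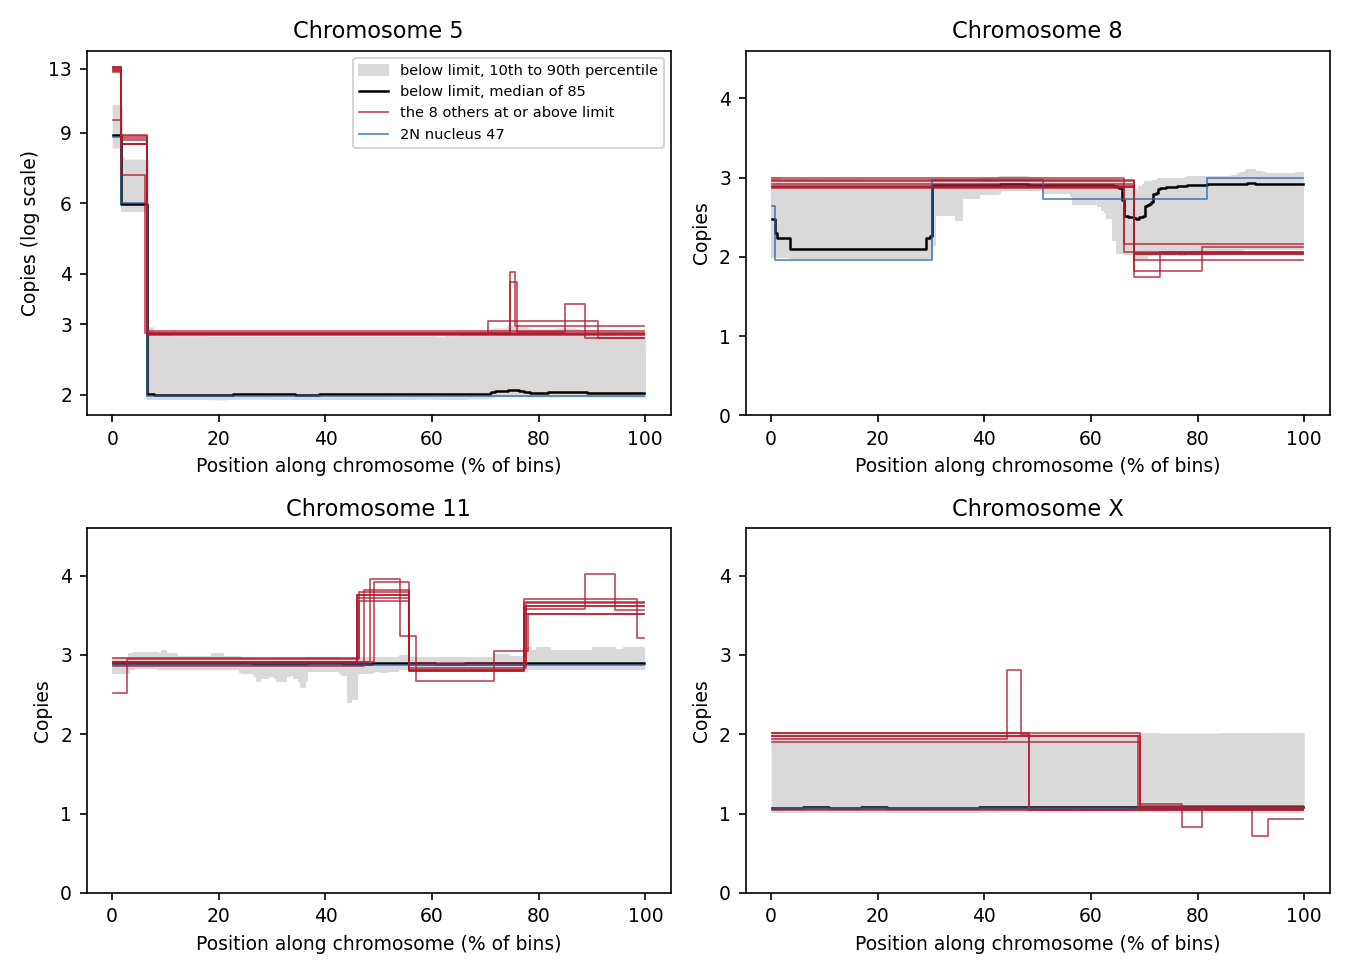
Copies along chromosomes 5 (log axis), 8, 11 and X, with position as the percentage of the chromosome's bins. Red lines are the 8 alike nuclei, the blue line is 2N nucleus 47, the black line is the median of the 85 nuclei below the limit and grey covers their 10th to 90th percentile. The red lines leave the grey range in the second and last regions of chromosome 11 and at the start of chromosome 5, where 7 of them lie near 13, and those at 2 copies on X drop at either of 2 places.

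Chromosome 5 began with a region of high copy number in nearly all nuclei. From 1 to 5715257 the copies were 12.99 in 2N nucleus 6, 13.1 in nucleus 7, 12.7 in nucleus 11, 12.8 in nucleus 18 and 13.1 in nucleus 39. They were 12.9 and 13.03 in 2N+ nuclei 5 and 7, 9.67 in 4N nucleus 11 and 8.78 in 2N nucleus 47. The nuclei below the limit had a median of 8.90 (2.51 to 12.7), and 5 of 85 (5.88%, 1.94 to 13.2) were at 11 or more. The values of 7 members thus lay above every nucleus below the limit. The margin was small, with 12.72 in 2N nucleus 11 and 12.66 in 2N nucleus 29, which is below the limit. The values of 4N nucleus 11 and 2N nucleus 47 fell inside the others' range. From 5715258 to 14159645 the median was 8.46 in members and 5.99 in the rest, and over the remainder of the chromosome 2.84 and 2.00. All 9 members had both downward borders of this region, as had 77 and 84 of 85 other nuclei, so the borders themselves do not tell the members apart. The median of members was higher in each region of chromosome 5. The level at its start was therefore not read apart from the state of the whole chromosome.

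Chromosome 2 was split in the same way in members and in most of the others, but at a higher level in the 8. Its borders at 14885854 and 75743671 were seen in 9 of 9 members and in 57 and 55 of 85 other nuclei. The 3 regions had medians of 3.89, 2.83 and 3.77 copies in the 8 nuclei, against 2.97, 2.00 and 2.94 below the limit, and 2.96, 1.94 and 2.93 in 2N nucleus 47. In 4N nucleus 11 the last region was itself split. Its copies fell from 3.82 to 2.95 at 135834039, a step seen in no other nucleus, and this is why its median over the chromosome rounded to 3. A further downward step at 23840870 was found in 4 members (2N nuclei 7 and 39, 2N+ nuclei 5 and 7) and in 0 of 85 others. Its median size of 0.54 copies was close to the 0.5 that defines a step.

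Chromosome 16 alternated between 3 and 2 copies over 5 regions, with borders at 19135649, 66290028, 80661654 and 83740532. This pattern was held by 9 of 9 members, 2N nucleus 47 included, and by 23 of 85 others (27.1%, 17.99 to 37.8), of which 17 were in the 2N gate. The shortest region, of 6 bins from 80661654 to 83740531, was at 1.89 to 2.08 copies in the 9 nuclei. Of the 9 features counted further on, it was part of the only one that all members held. The start of chromosome 1 was taken as a fixed run of 20 bins, from 3559438 to 19112294. It reached 4 copies in 0 of 9 members and in 17 of 85 others (20%, 12.1 to 30.1). The members had 2.86 to 2.97 copies there, apart from 2N nucleus 47 with 2.05.

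Chromosome X differed among the 8 nuclei. Its first region, up to 86828514, was at 2 copies in 6 of the 8 and at 1 in 2N nucleus 7 (1.06) and 4N nucleus 11 (1.05). In 2N nuclei 6 and 39 the copies fell at 86828515, from 2.01 and 1.94 to 1.05 in both, a step found in 1 of 85 other nuclei. In 2N nuclei 11 and 18 and 2N+ nuclei 5 and 7 the copies stayed at 2.02, 1.98, 1.91 and 1.98 until 118105154 and then fell to 1.094, 1.07, 1.05 and 1.06. This second step was found in 0 of 85 other nuclei and occurred in members of both the 2N and the 2N+ gate. The 8 nuclei therefore held 3 forms of X, and these did not follow the gate. X was at 2 or more over its whole length in 0 of 9 members and in 26 of 85 others (30.6%, 21.05 to 41.5), of which 22 were in 2N+. Chromosome Y, covered by 3 bins, was at 1 or more in 0 of 9 members (0 to 33.6) and in 18 of 85 others (21.2%, 13.1 to 31.4).

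Some short changes were shared by single pairs of members, of which the first 2 below joined nuclei of different gates. From 31846662 up to a border at 33258452, chromosome 4 rose by about 0.91 copies in 2N nucleus 7 and 2N+ nucleus 5 and in no nucleus below the limit, with both borders in the same bins. These were the members with the most breakpoints, 34 in 2N nucleus 7 and 44 in 2N+ nucleus 5. Chromosome 5 rose at 116103253 and fell at 118412999 in 2N nucleus 39 and 2N+ nucleus 7, as it did in 3 and 2 of the nuclei below the limit. Chromosome 11 rose at 61984897 in place of 59116632 in 2N nuclei 7 and 11 and in 0 of 85 others. Only 1 of these 2 nuclei had the step in exactly that bin. Whether it is a border apart from that at 59116632 was not tested. These pairs were not the pairs that shared a form of X: nuclei 7 of 2N and 5 of 2N+ differed in X, and so did nuclei 39 of 2N and 7 of 2N+.

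Nucleus 47 of the 2N gate met the rule and shared little else with the other 8. It had 3.84 copies of chromosome 19, as had 2N nucleus 39, the highest of the 8. Chromosomes 1, 5 and 15 were at 2.05, 1.98 and 2.01 copies where the others had 3, chromosome 18 was at 2.93 where they had 2, and chromosome 12 was at 3.75. No nucleus below the limit had chromosome 12 at 4 copies. It differed from the other members in 6 or 7 of 17 autosomes and from its nearest nuclei, 14 nuclei below the limit, in 2. The 9 nuclei thus did not have a single profile, so the group is called here by its rule. Shared descent of the other 8 was not tested.

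To sum up likeness over the features above, 9 were counted per nucleus: chromosome 5 at 3, 18 at 2, 15 at 3 and 1 at 3, the patterns of chromosomes 11, 8 and 16, chromosome 2 with its first region at 4 and its second at 3, and the start of chromosome 5 at 11 or more. This list was drawn up after the values had been seen and carries no test. Chromosome 5 enters it by its state and again by its start, so the features are not all separate. All 9 were held by 7 members while 4N nucleus 11 held 8, lacking the level at the start of chromosome 5. Nucleus 47 of 2N held 1. Below the limit, 26 nuclei held 1, 36 held 2, 14 held 3 and 6 held 4, and none held 5 or 6.

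Below the limit, 3 nuclei stood out of that range, 1 in each gate. Nucleus 29 of 2N and nucleus 13 of 2N+ held 8 features and nucleus 8 of 4N held 7. Their chromosome 19 was at 2.95, 2.89 and 2.92 copies, and their ratios to chromosome 4 were 1.48, 1.45 and 1.45. They were the same 3 nuclei that carried the pattern of chromosome 11, with 3.68, 3.77 and 3.70 copies in its second region. They were also at 3 copies then 2 on chromosome 8, and the start of chromosome 5 was at 12.7, 12.3 and 11.9. They differed from the 8 in chromosome 18, at 2.90, 3.04 and 2.89 copies, and in chromosome 14, at 2.82, 2.85 and 2.73. Chromosome 3 was at 3.89, 3.92 and 3.81, the state of the 2N+ and 4N members but not of the alike nuclei of 2N. Nucleus 8 of 4N also differed in the regions of chromosome 2, at 2.93, 2.09 and 2.94. Chromosome 14 at 3 was found in 0 of 9 members and in 5 of 85 others, these 3 among them. On X, nucleus 8 of 4N was at 1.07 throughout, a form that 2N nucleus 7 and 4N nucleus 11 also had. In nuclei 29 and 13 it rose at 100749006, from 1.02 and 1.05 to 1.94 and 1.97, a step seen in no other nucleus.

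Among themselves these 3 nuclei differed in 0 to 1 of 17 autosomes, from the 8 in 2 to 4 (median 3) and from the other nuclei below the limit in a median of 5. The 8 nuclei and these 3 thus shared the copy pattern of chromosome 11, with its downward border at 70335155 in all 11 nuclei. They differed in the states of chromosomes 14, 18 and 19, and some pairs differed in chromosome 2 or 3 as well. Both groups had nuclei in all 3 gates. Which order these changes arose in was not tested, and descent from a common cell was not measured other than through shared states and borders.

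The gates were set by DNA content, so the mean copies over chromosomes 1 to X were set beside them. In the 5 alike nuclei of 2N the mean was 2.48 to 2.56 (median 2.55), in 2N nucleus 47 it was 2.42, and in the other 41 nuclei of that gate the median was 2.35 (2.21 to 2.65, SD 0.0903). Of those 41, 3 were above the lowest of the 5. In the 2N+ gate the 2 members had 2.59 and 2.60 against a median of 2.56 (SD 0.108) in the others. The 4N member had 2.57 against a median of 2.35 (2.24 to 2.56) in its gate. By this measure the members of 2N, 2N+ and 4N lay close to each other, and 18 of 33 other nuclei of 2N+ were below the highest member of 2N. The measure is relative within a nucleus and cannot show a doubled set, so a 4N nucleus and a 2N nucleus with equal values cannot be told apart by it.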

How the data were processed

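Genomic DNA of 94 sorted nuclei and 2 bulk samples was amplified with the SeqXE kit, per the labels' protocols. The submitters' processing notes name Bowtie 1.0 and mm9. How bins, correction and segments were made was not given in the sources used here. Linear ratios per bin are what the authors deposited, equal over runs of bins as segment means are, so count models did not apply and depth is unknown. Codes after 19 were read as X and Y.

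Each nucleus was scaled to 2 copies over chromosomes 7, 9, 10 and 13. States are medians over bins, rounded to the nearest whole number. Every member and the 5 nuclei next below the limit are named, with chromosomes whose shares differ by 30 points or more, 4, 19, X and Y, and steps in at least 5 members or in 2 or more members and at most 2 others. Members and lists were chosen with earlier results of these data known. Functions were tested on 94 simulated nuclei with 4906 bins, and 0% of others were called members. All members (100%), all planted steps and all states of chromosomes without a planted step were recovered. The simulated nuclei had no noise between bins and only whole-copy steps on a single chromosome. This checks the code and does not measure accuracy on the real ratios. Alternatives were a lower and a higher limit, other scales, distances, step sizes and matching, and leaving out nuclei. Gene chromosomes came from RefSeq (GRCm38.p6 table, no coordinates used). Python 3.11.15 was used, with matplotlib 3.10.9, scipy 1.17.1, pandas 2.3.3 and numpy 2.4.6.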

Additional observations from a re-analysis of the deposited data

Results flagged for a closer look

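Across the 9 nuclei, 18 chromosomes were looked at for a highest or lowest nucleus that stood far from the others (Dixon's gap over range, 95% critical value), and 9 had one. The critical value served only as a cut-off for listing, and no rate expected by chance is given. Such a rate would need independent nuclei with normally spread values. These nuclei were taken as cells of 1 culture, and their copies gather near whole numbers. Chromosome 13, listed below, was also part of the scale used for copies. In 6 of them the nucleus was 2N nucleus 47: chromosome 1 at 2.05 copies (others 2.86 to 2.97), chromosome 5 at 1.98 (2.82 to 2.88), chromosome 8 at 2.73 (2.87 to 2.99), chromosome 12 at 3.75 (1.87 to 1.99), chromosome 15 at 2.01 (2.79 to 2.93) and chromosome 18 at 2.93 (1.99 to 2.09). Each but chromosome 8 was a different whole-number state. In the other 3 it was 2N nucleus 7, with no change of state: chromosome 13 at 2.11 (1.97 to 2.02), chromosome 14 at 1.78 (1.90 to 2.01) and chromosome 17 at 3.21 (2.96 to 3.01). This nucleus had 34 breakpoints, where the median of the 9 was 22.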

How the results depend on the processing

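Of 262 alternative values for 40 results, 258 stayed within the limits set for no change, and 4 moved. These counts do not measure robustness, because many of the values could not move. Leaving out a member, for example, cannot change a share among the other nuclei. The limits were also wide, so that a count of 6 in place of 8, or 9 in place of 12, was taken as no change. Without 2N nucleus 47, the share of members with chromosome 5 at 3 or more was 100%, with chromosome 15 at 3 or more 100%, and with chromosome 18 at 3 or more 0%. Scaled on chromosome 4, the median of mean copies of the 2N members was 2.60 in place of 2.54. The group was the same 9 nuclei at limits of 165% and 185%, as it had to be, since no nucleus lay between 1.56 and 1.87. The number of members whose nearest nuclei were all members was 8, 7 when X was added, and 6 to 8 when each member was left out. Steps in at least 5 of the 9 members numbered 9 when matched by exact bin and 13 with steps of 0.3 copies, against 12. No paired analysis was possible because replicate numbers here name separate nuclei, and nothing was fitted. The small number of members limits each share, and the smoothing of the deposited ratios hides changes shorter than a segment.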
